A study of Mus musculus with 9 samples.

Results

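The 10 chemokine genes described here are known to be transcribed by blood monocytes and natural killer (NK) cells. They were measured as mRNA in blood cells purified as monocytes from mice that lacked a chemokine receptor or its ligand. The genes were Ccl3, Ccl4, Ccl5, Xcl1, Ccl6, Ccl9, Cxcl9, Cxcl10, Cxcl2 and Cxcl16, chosen by symbol from the annotation of the array, and all 10 were among the 19938 genes measured. Chemokines are small secreted proteins that guide leukocytes through G protein-coupled receptors, and most fall into the CC or the CXC class by the spacing of their first cysteines. NK cells release CCL3, CCL4, CCL5 and XCL1 when they are activated, whereas mouse myeloid cells are known producers of CCL6 and CCL9. CXCL9 and CXCL10 are the classic products of cells that respond to interferon-γ.

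The arrays compared Ccr2-/-, Ccl2-/- and wild type mice, all tumor-free, on the Balb/c strain and 14 to 18 weeks old. CCR2 is the signalling receptor of CCL2 and is carried by Ly-6C high monocytes. The study found monocytes to accumulate in the bone marrow of Ccr2-/- mice but not of Ccl2-/- mice. Each genotype had 3 arrays, and each array held RNA pooled from 5 mice, so that the error describes pools and not single animals. By the study's methods, blood leukocytes were depleted with antibodies to CCR3, MHC class II, Ly-6G, B220, CD8 and CD4, and CD11b-bearing cells were then selected. Monocytes were further defined there as lacking NK1.1 and CD11c, but the listed depletion named neither, and NK cells can carry CD11b. Below, the word monocytes therefore names this selected fraction, in which NK cell transcripts were also read. Which cells in it held a chemokine transcript was not measured.

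All values were log2 of the deposited linear intensity, and a difference of 1 on this scale is a 2-fold change. A gene was said to rise or fall where the adjusted p of limma, computed over all genes, was under 0.05. The Ccr2 transcript itself read 9.41, 9.44 and 9.47 in the Ccr2-/- arrays, 12.61, 12.73 and 12.93 in the Ccl2-/- arrays and 13.26, 13.02 and 12.99 in the wild type arrays. The Ccl2 transcript read 9.87, 9.27 and 9.23 in the arrays labelled Ccl2-/-, against 8.90, 9.22 and 8.82 in wild type, so it was not lower in the knockout, and where its probes lie relative to the deletion was not known. The Ccl2-/- arrays were therefore told apart by their label only. Ccl2-/- replicate 1 stood apart from the rest, with a median intensity of 430.8, against 324.1 to 355.1 in the other 8 arrays, and a mean correlation of 0.97 with its own group. Detection calls were not used here, so a low level could not be told apart from background. Cxcl2 and Cxcl16 were below the array median of all genes on all 9 arrays, and Cxcl9 and Cxcl10 on the 3 Ccr2-/- arrays and on 3 and 2 Ccl2-/- arrays. Their differences are ratios of probe intensity, and where one side is background such a ratio understates the change in transcript. Over all genes the median log2 difference was 0.01 for Ccr2-/- against wild type, 0.08 for Ccl2-/- against wild type and -0.08 for Ccr2-/- against Ccl2-/-.

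In the Ccr2-/- monocyte fraction 3 of the 10 chemokine genes rose (Ccl3, Ccl5 and Xcl1) and 5 fell (Ccl6, Ccl9, Cxcl9, Cxcl10 and Cxcl16) relative to wild type. Among all genes tested, 4.91% rose and 8.38% fell, which is 13.3% in either direction. Ccl4 and Cxcl2 did not pass the test, and 9 of the 10 genes had an unadjusted p under 0.05, against 23.2% of all genes. For all 10 the Ccr2-/- arrays did not overlap the wild type arrays, with 4 genes above and 6 below, where 33.9% of all genes had arrays that did not overlap. By the size limits of the study's methods (a ratio over 1.2 and a difference over 100 between group means of linear intensity), 4 members were higher and 4 lower, against 6.56% and 9.21% of all genes. The higher members were Ccl3, Ccl4, Ccl5 and Xcl1, and the lower ones were Ccl6, Ccl9, Cxcl9 and Cxcl10.

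**Figure D1:**
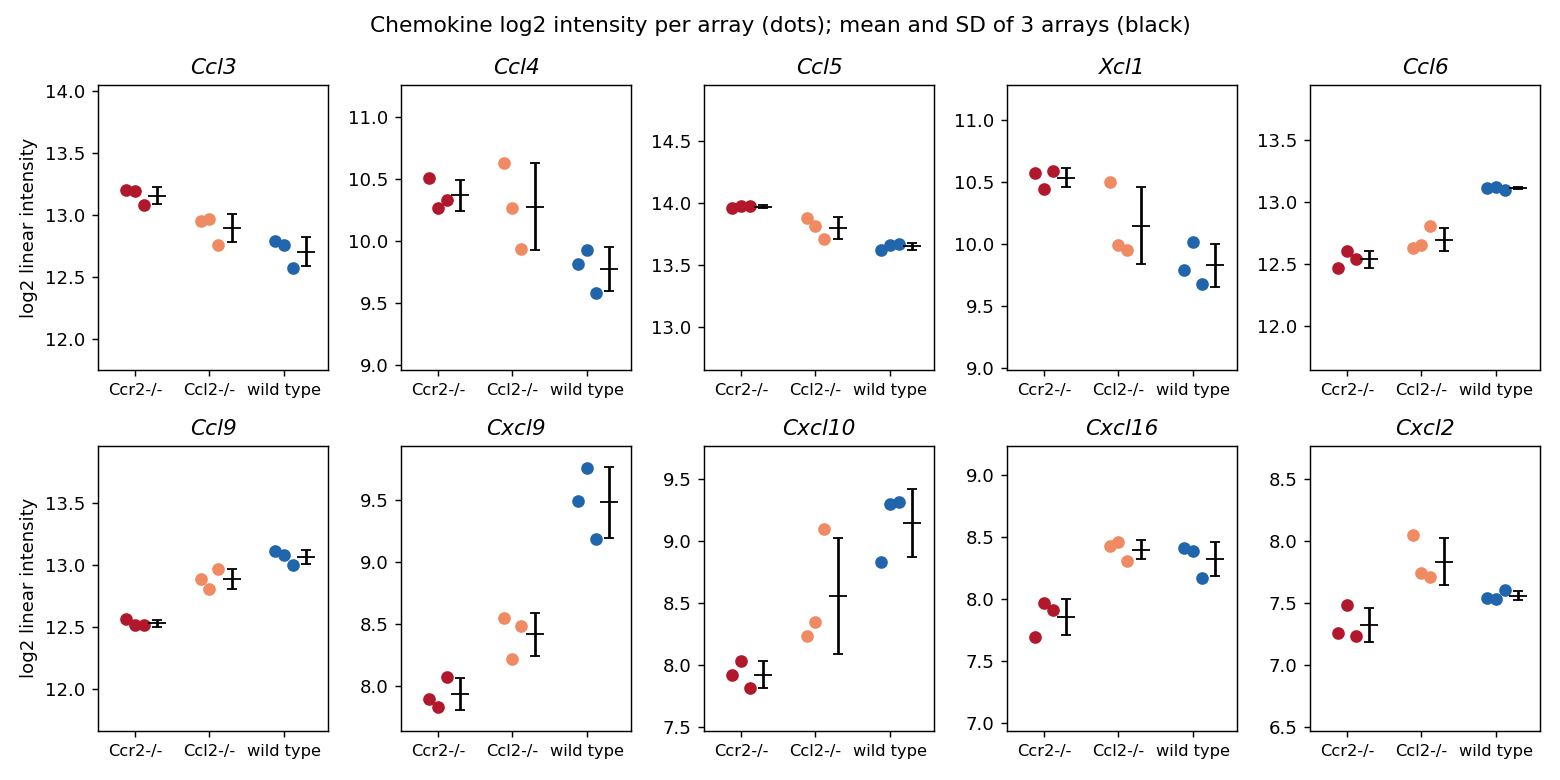
Log2 intensity of each of the 10 chemokine genes (panels) on every array, with Ccr2-/- left, Ccl2-/- in the middle and wild type right, and the mean and SD of 3 arrays in black. The Ccr2-/- points lie above all wild type points for Ccl3, Ccl4, Ccl5 and Xcl1 and below them for the other 6 genes.

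Among the chemokines released by activated NK cells, Ccl3 encodes MIP-1α, a ligand of CCR1. It read 13.20, 13.19 and 13.08 in Ccr2-/- arrays, 12.95, 12.97 and 12.76 in Ccl2-/- arrays and 12.79, 12.76 and 12.57 in wild type arrays. All Ccr2-/- arrays were above both other groups, while Ccl2-/- and wild type overlapped. The group means were 13.16 ± 0.07, 12.89 ± 0.11 and 12.70 ± 0.12 (SD, n = 3 each) for Ccr2-/-, Ccl2-/- and wild type. Ccl3 rose in Ccr2-/- arrays by 0.45 ± 0.09 (SE, 1.37-fold, adjusted p = 0.0104), a call that was lost without Ccr2-/- replicate 2 (adjusted p = 0.0502). The difference was 0.19 for Ccl2-/- against wild type (adjusted p = 0.41, 95% interval -0.01 to 0.39) and 0.26 for Ccr2-/- against Ccl2-/- (adjusted p = 0.159).

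Ccl4, the neighbour of Ccl3 on the chromosome, encodes MIP-1β, a chemoattractant of lymphocytes and monocytes. It read 10.51, 10.27 and 10.33 in Ccr2-/- arrays, 10.63, 10.27 and 9.94 in Ccl2-/- arrays and 9.82, 9.93 and 9.59 in wild type arrays. Both knockout groups lay above every wild type array, Ccl2-/- replicate 3 only just, and the Ccl2-/- arrays spread across the Ccr2-/- range. The Ccr2-/- difference from wild type was 0.59 ± 0.17 (1.51-fold) and missed the threshold (adjusted p = 0.0595). It passed with each array centred on its median (adjusted p = 0.0105), in a fit of the 6 arrays compared (adjusted p = 0.00901), and without Ccl2-/- replicate 1 (adjusted p = 0.00995) or replicate 3 (adjusted p = 0.0234), which enter this contrast only through the shared variance. Without Ccl2-/- replicate 2 it did not pass (adjusted p = 0.0947). Leaving out any of the Ccr2-/- or wild type arrays also left it short of the threshold (adjusted p = 0.0898 to 0.209). The Ccl2-/- difference from wild type was 0.50 (1.41-fold, adjusted p = 0.275), or 0.32 without Ccl2-/- replicate 1. Between Ccr2-/- and Ccl2-/- it was 0.09 with a 95% interval of -0.30 to 0.48.

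Ccl5 encodes RANTES, a ligand of CCR1 and CCR3 that cytotoxic lymphocytes store and secrete. Its arrays read 13.96, 13.98 and 13.98 in Ccr2-/-, 13.88, 13.81 and 13.70 in Ccl2-/- and 13.62, 13.66 and 13.67 in wild type. The genotypes formed a ladder without overlap, and the Ccr2-/- arrays were close to each other (13.97 ± 0.01, SD, n = 3). Ccl5 rose in Ccr2-/- arrays by 0.32 ± 0.07 (1.25-fold, adjusted p = 0.0124). This call was lost with arrays centred on their medians (adjusted p = 0.0579), without Ccr2-/- replicate 2 (adjusted p = 0.0563) and without wild type replicate 1 (adjusted p = 0.0579). Ccl2-/- differed from wild type by 0.15 (adjusted p = 0.383), and Ccr2-/- from Ccl2-/- by 0.17 (adjusted p = 0.207).

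Xcl1 encodes lymphotactin, which attracts dendritic cells bearing XCR1, and is the one of the 10 genes on chromosome 1. Its values were 10.57, 10.45 and 10.59 in Ccr2-/- arrays, 10.50, 9.99 and 9.95 in Ccl2-/- arrays and 9.79, 10.02 and 9.67 in wild type arrays. The Ccr2-/- arrays exceeded all wild type arrays, and Ccl2-/- replicate 1 alone reached the Ccr2-/- range. Xcl1 rose in Ccr2-/- arrays by 0.71 ± 0.15 (1.63-fold, adjusted p = 0.0172), the widest of the rises called among the 10 genes. It did not pass when Ccr2-/- replicate 1 or 3, or wild type replicate 1 or 3, was left out (adjusted p = 0.0592 to 0.0708). For Ccl2-/- against wild type the difference was 0.32 (adjusted p = 0.419), and 0.14 without Ccl2-/- replicate 1. Ccr2-/- exceeded Ccl2-/- by 0.39 (adjusted p = 0.228), and by 0.56 without that array (adjusted p = 0.0222).

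Markers of NK cells were also higher in Ccr2-/- arrays than in wild type. Of 20 NK cell markers measured, 20 rose in Ccr2-/- arrays relative to wild type, where 4.91% of all genes rose. The receptor genes Klra3 (2.02-fold) and Klrc2 (2.10-fold) were among them, and the median log2 difference of the 20 was 0.79 (1.73-fold). Their summed linear intensity was 137373 to 142161 in Ccr2-/- arrays, 101429 to 122339 in Ccl2-/- arrays and 80065 to 87065 in wild type arrays. The groups did not overlap on this measure. Ncr1, which encodes the NK receptor NKp46 and was named here for that role, read 13.41, 13.38 and 13.35 in Ccr2-/- arrays and 12.63, 12.73 and 12.70 in wild type arrays. In Ccl2-/- arrays 1 NK marker rose (Klrc1, 0.71, adjusted p = 0.0493), where 0.0752% of all genes rose. The list's median was 0.47, and 18 of 20 reached an unadjusted p under 0.05, against 13.1% of all genes. Without Ccl2-/- replicate 3, where calls over all genes grew to 476 from 32, 14 passed, and without any other single array 0 passed. Ccl3, Ccl4, Ccl5 and Xcl1 had their order of group means, Ccr2-/- above Ccl2-/- above wild type, in common with the NK list. In the main fit none of these chemokine genes passed between Ccr2-/- and Ccl2-/- or between Ccl2-/- and wild type. For Ccl4 the difference of Ccr2-/- from Ccl2-/- was 0.09 (95% interval -0.30 to 0.48), and -0.08 without Ccl2-/- replicate 3. The part of NK cells in the chemokine values was not tested, and in bulk RNA a change in the number of cells of a type and a change in RNA per cell cannot be told apart.

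**Figure D2:**
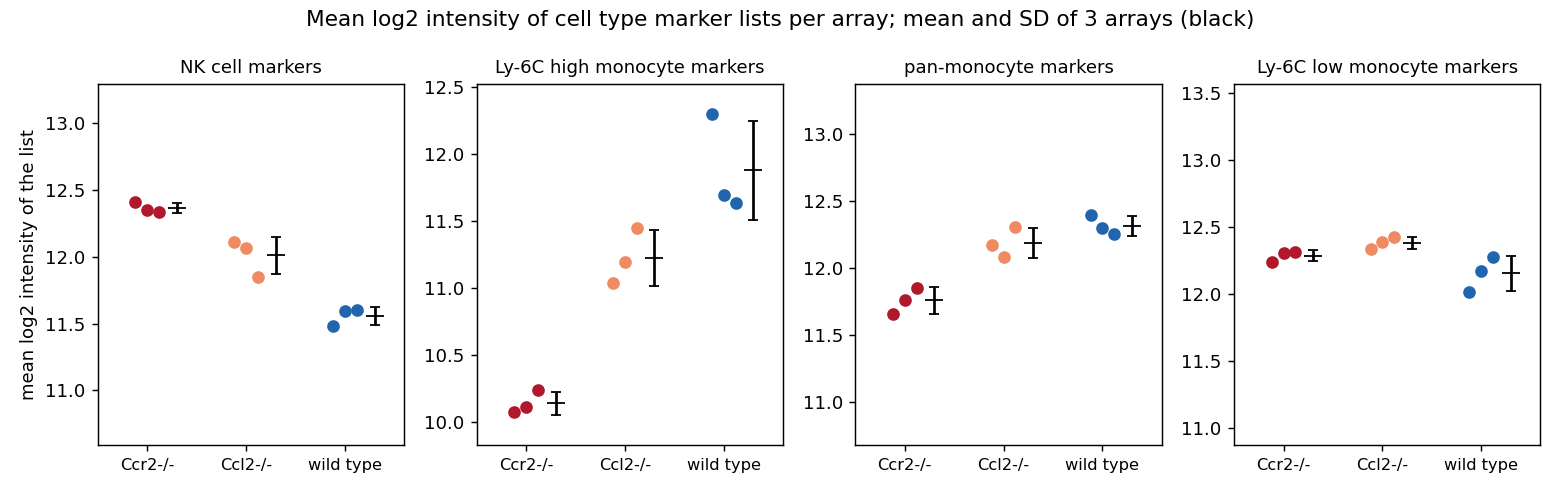
Mean log2 intensity of 4 cell type marker lists (panels) on each array (the Ly-6C high list with Ccr2 included), with Ccr2-/- left, Ccl2-/- in the middle and wild type right, and the mean and SD of 3 arrays in black. The NK list is highest in Ccr2-/- arrays and the Ly-6C high monocyte list is lowest there, with Ccl2-/- arrays between Ccr2-/- and wild type in both.

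Ccl6 and Ccl9 are rodent chemokines of the CC class that share the receptor CCR1. In the RefSeq gene order of the mouse, Ccl5, Ccl9, Ccl6, Ccl3 and Ccl4 follow each other on chromosome 11 with 0 protein-coding genes between neighbours. Ccl2 lies on the same chromosome, with 30 protein-coding genes between it and Ccl5. Genes that were higher and genes that were lower in Ccr2-/- monocytes therefore stand side by side. Of the 21 pairs among the 7 members with a promoter in the RefSeq table (GRCm38.p6), Ccl6 and Ccl9 shared the longest run of identical bases in the 250 bases before the start site. Their windows, chr11:83593088-83593337 and chr11:83578637-83578886 on the minus strand, are shown 5′ to 3′ with the shared runs in capitals, because both neighbours fell in Ccr2-/- against wild type.
Ccl6: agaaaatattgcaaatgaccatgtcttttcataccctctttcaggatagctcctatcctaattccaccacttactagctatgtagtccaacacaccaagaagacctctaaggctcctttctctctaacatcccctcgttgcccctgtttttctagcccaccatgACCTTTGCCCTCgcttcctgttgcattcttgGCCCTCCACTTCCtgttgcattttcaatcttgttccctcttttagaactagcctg
Ccl9: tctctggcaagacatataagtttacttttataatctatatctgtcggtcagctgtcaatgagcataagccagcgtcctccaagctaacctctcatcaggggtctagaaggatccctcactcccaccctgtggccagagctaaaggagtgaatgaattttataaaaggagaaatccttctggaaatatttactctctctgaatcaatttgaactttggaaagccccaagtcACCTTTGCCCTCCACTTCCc
A run of 12 bases (ACCTTTGCCCTC) stands at -86 to -75 in Ccl6 and -20 to -9 in Ccl9, and a run of 13 (GCCCTCCACTTCC) at -55 to -43 in Ccl6 and -14 to -2 in Ccl9. In the Ccl9 window they merge into one stretch directly before the start site. A shared run describes these letters and is not a binding site by itself.

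Ccl6 read 12.46, 12.61 and 12.54 in Ccr2-/- arrays, 12.63, 12.65 and 12.80 in Ccl2-/- arrays and 13.11, 13.11 and 13.10 in wild type arrays. Every knockout array was below every wild type array, and the Ccr2-/- arrays were the lowest of all. The means were 12.54 ± 0.07, 12.69 ± 0.09 and 13.11 ± 0.01 for Ccr2-/-, Ccl2-/- and wild type (SD, n = 3 each). Ccl6 fell in Ccr2-/- monocytes by 0.57 on the log2 scale, to 0.67-fold (SE 0.07, adjusted p = 0.00132). In Ccl2-/- monocytes the difference was -0.41 (0.75-fold, adjusted p = 0.0689). It passed after quantile normalization (adjusted p = 0.0486) and without Ccl2-/- replicate 3 (-0.47, adjusted p = 0.0227). Ccr2-/- differed from Ccl2-/- by -0.16 (adjusted p = 0.28, 95% interval -0.32 to 0.00).

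Ccl9, also known as MIP-1γ, attracts dendritic cells and osteoclast precursors in mice. It read 12.57, 12.52 and 12.52 in Ccr2-/- arrays, 12.89, 12.81 and 12.97 in Ccl2-/- arrays and 13.12, 13.08 and 13.01 in wild type arrays. The groups were again ordered without overlap, the Ccl2-/- arrays here being nearer to wild type. Ccl9 fell in Ccr2-/- monocytes by 0.54 on the log2 scale relative to wild type (SE 0.07, 0.69-fold, adjusted p = 0.00138). Ccl2-/- differed from wild type by -0.18 (0.88-fold, adjusted p = 0.311). The direct comparison gave -0.36 for Ccr2-/- against Ccl2-/- (0.78-fold, adjusted p = 0.0306).

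Of the 10 genes, Cxcl9 and Cxcl10, the interferon-γ inducible ligands of CXCR3, had the largest differences in log2 intensity between Ccr2-/- and wild type. They lie on chromosome 5 with 1 protein-coding gene, Art3, between them. Their windows of 250 bases before the start site, chr5:92328080-92328329 and chr5:92348890-92349139 on the minus strand of GRCm38.p6, are shown because both genes fell in Ccr2-/- against wild type. Capitals mark an 11-base run that both share (CAGCCAATCAG) and the matches to the motifs named after them.
Cxcl9: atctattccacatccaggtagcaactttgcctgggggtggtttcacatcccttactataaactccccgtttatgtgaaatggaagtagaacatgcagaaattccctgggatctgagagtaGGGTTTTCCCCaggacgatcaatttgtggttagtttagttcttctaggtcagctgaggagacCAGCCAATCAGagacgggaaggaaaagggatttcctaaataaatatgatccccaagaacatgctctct
Cxcl10: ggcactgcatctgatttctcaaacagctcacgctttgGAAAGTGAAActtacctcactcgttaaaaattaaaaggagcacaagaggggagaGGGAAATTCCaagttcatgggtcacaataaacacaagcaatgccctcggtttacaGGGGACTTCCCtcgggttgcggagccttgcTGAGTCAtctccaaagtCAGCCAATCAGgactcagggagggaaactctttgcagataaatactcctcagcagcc
The shared run stands at -68 to -58 in Cxcl9 and at -57 to -47 in Cxcl10, and holds the letters CCAAT. Runs of 10 bases were also shared by Cxcl2 with Cxcl10 and by Ccl9 with Cxcl2 and Cxcl10, although Cxcl2 did not pass against wild type. How often other windows share such runs was not counted. The core of the interferon-stimulated response element (GAAA, any 2 bases, GAAA) was found at -213 to -204 in Cxcl10 and in no other of the 7 member windows, and occurs in 2.98% of 32851 windows of this length. Letters of the kappa-B type (GGG, any 5 bases, CC) start at -159 and -104 in Cxcl10 and at -130 in Cxcl9, with matches on the opposite strand overlapping the downstream Cxcl10 match and the Cxcl9 match, but 45.8% of all windows hold them. The AP-1 letters TGANTCA stand at -74 in Cxcl10, as in 6.75% of windows, and the gamma-activated site letters TTCNNNGAA, held by 7.02%, were in none of the member windows. Neither the kappa-B nor the AP-1 letters were particular to this pair. The kappa-B letters also start at -97 and -78 in Cxcl2 and at -35 in Ccl9, and the AP-1 letters at -53 in Ccl9. Both strands were searched, and a match describes letters only.

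Cxcl9 read 7.90, 7.84 and 8.08 in Ccr2-/- arrays, 8.55, 8.22 and 8.48 in Ccl2-/- arrays and 9.50, 9.76 and 9.19 in wild type arrays. The genotypes did not overlap, and the wild type arrays stood above both knockouts. The means were 7.94 ± 0.13, 8.42 ± 0.17 and 9.48 ± 0.29 for Ccr2-/-, Ccl2-/- and wild type (SD, n = 3 each). Cxcl9 fell in Ccr2-/- monocytes by 1.54 on the log2 scale, to 0.34-fold of the wild type intensity (SE 0.15, adjusted p = 0.000731), and passed under all 17 alternatives tried. On the Ccr2-/- arrays 28.1% to 35.5% of all genes read below Cxcl9, against 60.8% to 68.8% on the wild type arrays, so the Ccr2-/- level may be background and the fold is then only a bound. In Ccl2-/- monocytes the difference was -1.06 (0.48-fold, SE 0.15) and just missed the threshold (adjusted p = 0.0537). It passed in 7 of 17 alternatives, among them the centred arrays (-1.18, adjusted p = 0.0105) and the fits without Ccl2-/- replicate 1 (-1.13, adjusted p = 0.0484) or replicate 3 (-1.10, adjusted p = 0.0305). Ccr2-/- lay below Ccl2-/- by a difference of -0.48 (adjusted p = 0.135).

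Cxcl10 read 7.92, 8.03 and 7.82 in Ccr2-/- arrays, 8.23, 8.35 and 9.10 in Ccl2-/- arrays and 8.83, 9.30 and 9.31 in wild type arrays. Ccr2-/- was below all other arrays, while Ccl2-/- replicate 3 reached into the wild type range. Cxcl10 fell in Ccr2-/- monocytes by 1.22 on the log2 scale (SE 0.23, 0.43-fold, adjusted p = 0.00806), a call kept in all 17 alternatives. Its Ccr2-/- level, with 28% to 33.6% of all genes below it, is open to the same limit as that of Cxcl9. The Ccl2-/- difference from wild type was -0.59 (0.67-fold, adjusted p = 0.326), and -0.86 without Ccl2-/- replicate 3 (adjusted p = 0.0389). Between Ccr2-/- and Ccl2-/- it was -0.63 (adjusted p = 0.18).

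Of 12 measured regulators of chemokine genes, 3 rose in Ccr2-/- arrays and 2 fell, where 4.91% of all genes rose and 8.38% fell. The list also held Adam10 and Adam17, proteases that act on CXCL16 and not on a chemokine gene. Ifng, the interferon-γ gene, read 10.50, 10.15 and 10.24 in Ccr2-/- arrays, 10.16, 10.24 and 9.96 in Ccl2-/- arrays and 9.39, 9.51 and 9.45 in wild type arrays, so that both knockouts were above wild type. It rose by 0.85 in Ccr2-/- (1.80-fold, adjusted p = 0.0015) and differed by 0.67 in Ccl2-/- (adjusted p = 0.0637). Tbx21 (0.92) and Eomes (0.80), transcription factors of NK cells and cytotoxic T cells that also stand in the NK marker list, rose with it in Ccr2-/-. Ifngr2, the signalling chain of the interferon-γ receptor, read 11.83, 11.98 and 12.01 in Ccr2-/- arrays, 12.36, 12.38 and 12.59 in Ccl2-/- arrays and 12.66, 12.59 and 12.65 in wild type arrays. Ccr2-/- was below both other groups, and Ifngr2 fell to 0.62-fold of wild type (adjusted p = 0.00121). Nfkb2, which encodes an NF-kappa-B subunit, also fell (-0.44, adjusted p = 0.00214). In Ccl2-/- against wild type 0 of the 12 passed limma's test and 4 had an unadjusted p under 0.05, against 13.1% of all genes. In Ccr2-/- against Ccl2-/- Tbx21 rose (0.45, adjusted p = 0.0406) and Ifngr2 (-0.51, adjusted p = 0.0221) and Nfkb2 (-0.39, adjusted p = 0.0193) fell. After centring 0 genes of the list fell, as without Ccr2-/- replicate 1 or 2 or Ccl2-/- replicate 3, and 0 to 2 rose with an array left out (2 without Ccl2-/- replicate 1, 0 without any other). Ifngr1, which encodes the other chain of that receptor, and Irf1 did not pass in Ccr2-/- against wild type. Their differences were -0.07 (adjusted p = 0.635) and 0.08 (adjusted p = 0.646). In Ccr2-/- arrays Cxcl9, Cxcl10 and Ifngr2 were below wild type and Ifng was above it, while Ifngr1 and Irf1 overlapped it. How these genes bear on each other was not tested.

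Cxcl16 encodes a transmembrane chemokine that is cut loose by ADAM10 and ADAM17 and is read by CXCR6. It was 7.69, 7.97 and 7.91 in Ccr2-/- arrays, 8.43, 8.46 and 8.31 in Ccl2-/- arrays and 8.42, 8.39 and 8.17 in wild type arrays. Only Ccr2-/- stood apart, while Ccl2-/- and wild type overlapped, and 25.1% to 31.7% of all genes read below it on the Ccr2-/- arrays. Cxcl16 fell in Ccr2-/- monocytes by 0.47 on the log2 scale relative to wild type (SE 0.10, 0.72-fold, adjusted p = 0.0164), and without Ccr2-/- replicate 1 or wild type replicate 1 or 2 it did not pass (adjusted p = 0.0621 to 0.0732). Ccl2-/- differed from wild type by 0.07, a value whose sign turned with the scaling (-0.05 after quantile normalization and -0.04 after centring). Ccr2-/- against Ccl2-/- gave -0.54 (0.69-fold, adjusted p = 0.029). Adam17 fell in Ccr2-/- (-0.27, adjusted p = 0.0437), and Adam10, named here for its role after its values were seen, differed by -0.23 (adjusted p = 0.0511).

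Cxcl2 encodes MIP-2, which draws neutrophils through CXCR2. It read 7.26, 7.49 and 7.23 in Ccr2-/- arrays, 8.05, 7.75 and 7.71 in Ccl2-/- arrays and 7.55, 7.53 and 7.60 in wild type arrays. The 3 groups did not overlap, but 12.3% to 26.7% of all genes read below Cxcl2 on any array, and Ly6g, a marker of the depleted neutrophils, read 7.14 to 7.55. Whether the Cxcl2 probes were above background was not known, so no direction is drawn for the transcript. Neither difference from wild type passed, at -0.23 for Ccr2-/- (0.85-fold, adjusted p = 0.247) and 0.27 for Ccl2-/- (1.21-fold, adjusted p = 0.334; 0.17 without Ccl2-/- replicate 1). The direct difference in intensity of Ccr2-/- from Ccl2-/- was -0.51 (0.70-fold, adjusted p = 0.0427).

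Most pan-monocyte and all Ly-6C high monocyte markers measured were also lower in Ccr2-/- arrays than in wild type. Of 8 pan-monocyte markers, 6 fell in Ccr2-/- arrays relative to wild type, where 8.38% of all genes fell, and the list's median was -0.39. Adgre1 (0.57-fold, adjusted p = 0.00149) and Cd14 (0.39-fold, adjusted p = 0.00151) were among the 6, while Lyz2 (-0.14) and Itgam (0.04) did not pass. The summed intensity of the 8 was 42624 to 46337 in Ccr2-/- arrays, 50589 to 55394 in Ccl2-/- arrays and 53830 to 56791 in wild type arrays. Apart from Ccr2, which is deleted, all 5 Ly-6C high monocyte markers measured fell in Ccr2-/- with a median of -1.42, and summed to 11948 to 12782 in Ccr2-/- arrays, 17930 to 20308 in Ccl2-/- arrays and 23999 to 29706 in wild type arrays. In Ccl2-/- against wild type none of these monocyte markers passed limma's test. All 5 of these Ly-6C high markers and 1 of 8 pan-monocyte markers had an unadjusted p under 0.05 there, against 13.1% of all genes. The medians in that comparison were -0.67 for the 5 and -0.06 for the pan-monocyte list. Of 8 Ly-6C low markers 2 rose in Ccr2-/- (Cd9 and Spn) and 1 in Ccl2-/- (Cd9), where 4.91% and 0.0752% of all genes rose. The part of the monocyte subsets in the values of Ccl6, Ccl9, Cxcl9, Cxcl10 and Cxcl16 was not tested. Lists for T cells (10 genes measured), B cells (5), neutrophils (11), platelets (6), basophils (6) and dendritic cells (5) had 0 genes past limma's test in any comparison. The T cell list was uneven, with summed intensities of 15330, 10500 and 5006 in Ccr2-/- arrays, 5112, 8791 and 6069 in Ccl2-/- arrays and 8623, 8607 and 8324 in wild type arrays. Cd3e, a chain of the T cell receptor complex, read 11.68, 10.92 and 9.20 in the Ccr2-/- arrays, so that T cell transcripts stood apart in both directions there, and their part in the chemokine values was not tested. An unadjusted p under 0.05 was reached by 1 T cell, 1 B cell and 1 platelet gene in Ccr2-/- against wild type, beside 23.2% of all genes. In Ccl2-/- against wild type 5 basophil, 3 B cell and 3 neutrophil genes reached it, beside 13.1% of all genes. In Ccr2-/- against Ccl2-/- 4 basophil, 2 B cell, 1 neutrophil and 1 platelet gene did, beside 18.6% of all genes.

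In Ccl2-/- monocytes 0 of the 10 chemokine genes passed limma's test against wild type, where 0.0752% of all genes rose and 0.0853% fell, 0.16% in all. An unadjusted p under 0.05 was reached by 6 of the 10, against 13.1% of all genes, with Ccl4 and Cxcl2 higher and Ccl6, Ccl9, Cxcl9 and Cxcl10 lower. Arrays did not overlap wild type for 3 genes above and 3 below, against 9.43% and 9.31% of all genes, 18.7% in either direction. By the size limits 2 members were higher (Ccl4 and Xcl1) and 3 lower (Ccl6, Cxcl9 and Cxcl10), against 7.84% and 3.76% of all genes. Without Ccl2-/- replicate 3 the members that fell numbered 3, but the share of all genes that fell was then 1.08% and that of those that rose 1.3%. The median difference of the 10 genes was 0.11 in Ccl2-/- (0.08 over all genes) and -0.35 in Ccr2-/- (0.01 over all genes), both against the same wild type arrays. The Ccl2-/- mean lay between those of Ccr2-/- and wild type for 8 of the 10 genes, as it did for 38% of all genes, the exceptions being Cxcl2 and Cxcl16.

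Set directly against Ccl2-/- monocytes, Ccr2-/- monocytes had 0 members that rose and 3 that fell, namely Ccl9, Cxcl2 and Cxcl16, where 0.732% of all genes rose and 2.87% fell, 3.6% in either direction. An unadjusted p under 0.05 was reached by 8 members, against 18.6% of all genes, and Ccr2-/- arrays lay above for 2 members and below for 6, against 7.58% and 16% of all genes, 23.6% in either direction. The size limits gave Xcl1 higher and Ccl9, Cxcl10 and Cxcl16 lower, against 3.47% and 9.16% of all genes. These calls changed with the scaling of the arrays. With each array centred on its median, 0 members fell and 1 rose (Xcl1, 0.50, adjusted p = 0.0455), and the calls over all genes turned to 187 that rose and 74 that fell, against 146 and 572 uncentred. After quantile normalization they were 302 and 385. Without Ccl2-/- replicate 1 the 3 members still fell, with differences of -0.36 for Ccl9, -0.40 for Cxcl2 and -0.53 for Cxcl16 (adjusted p = 0.0323 to 0.0358), while leaving out any of 7 other arrays left 0 calls and leaving out wild type replicate 3 left 1.

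**Figure D3:**
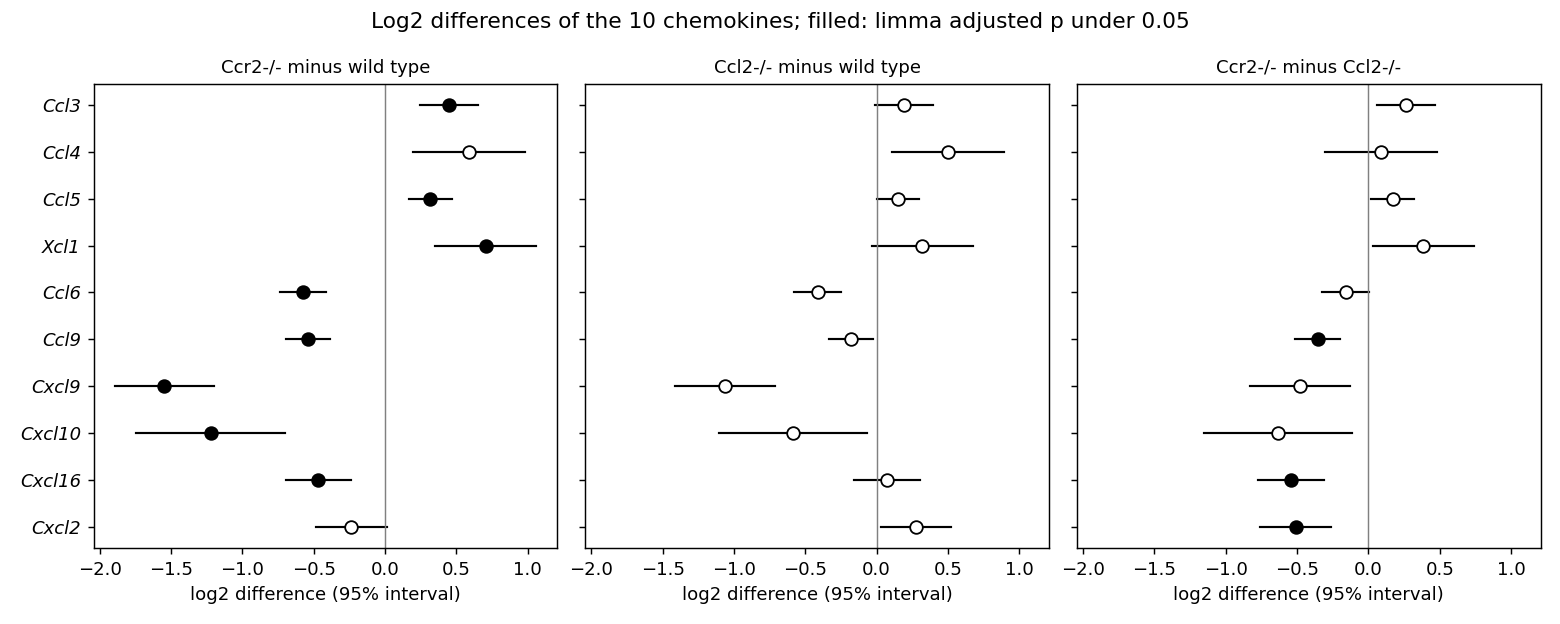
Log2 difference of each of the 10 chemokine genes in the 3 comparisons, with 95% intervals of the limma fit, and filled points where the adjusted p is under 0.05. Filled points number 8 for Ccr2-/- against wild type, 0 for Ccl2-/- against wild type and 3 for Ccr2-/- against Ccl2-/-.

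Of 6 receptors of the 10 chemokines that were tested here, 1 rose in Ccr2-/- monocytes, Ccr3, where 4.91% of all genes rose. Ccr3, a receptor of CCL5 on eosinophils and basophils, read 9.16, 9.24 and 9.15 in Ccr2-/- arrays, 7.99 to 8.06 in Ccl2-/- arrays and 8.10, 8.45 and 8.11 in wild type arrays. Ccr2-/- arrays were above all others, by 0.96 against wild type (1.95-fold, adjusted p = 0.000793) and by 1.17 against Ccl2-/- (2.24-fold, adjusted p = 0.00454). Ccr3 is the next protein-coding gene to Ccr2 on chromosome 9, with 0 between, and cells bearing CCR3 had been depleted. Its neighbourhood to the deletion cannot be told apart from the genotype here. Ccr1, a receptor of CCL3, CCL5, CCL6 and CCL9, differed by -0.63 in Ccr2-/- and -0.72 in Ccl2-/- (adjusted p = 0.216 and 0.32), and Cxcr3, which reads CXCL9 and CXCL10, by -0.02 and -0.08. Cxcr6 (0.51 in Ccr2-/-), Xcr1 (0.19) and Cxcr2 (-0.27) did not pass either. Of 16 other chemokine receptors, 1 fell in Ccr2-/-, Ccr2 itself (-3.65), where 8.38% of all genes fell.

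**Figure D4:**
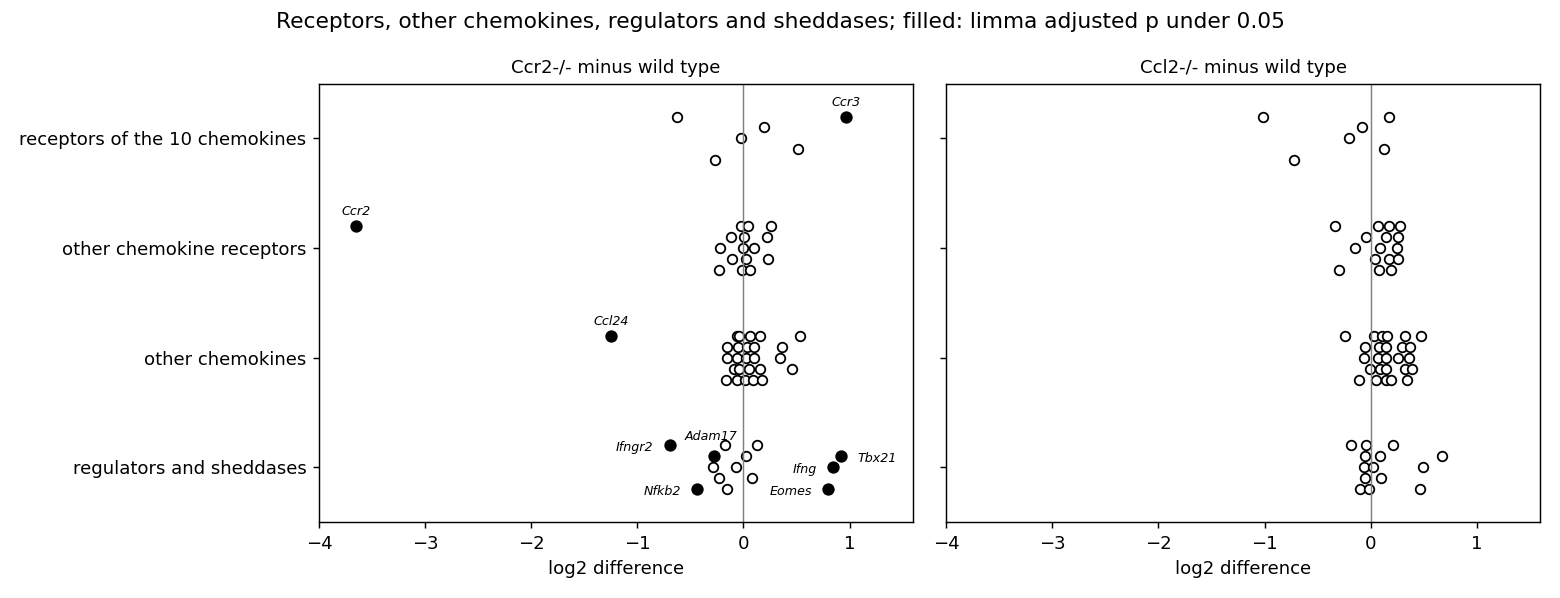
Log2 difference from wild type in Ccr2-/- (left) and Ccl2-/- (right) for the genes of 4 lists (rows, sheddases being Adam10 and Adam17), with filled and named points where the limma adjusted p is under 0.05. The left panel has 9 filled points, from Ccr2 at -3.65 to Ccr3 at 0.96, and the right panel has 0.

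Among 26 other chemokines measured, 0 rose and 1 fell in Ccr2-/- monocytes, where 4.91% of all genes rose and 8.38% fell. Of the 26, 3 had an unadjusted p under 0.05, against 23.2% of all genes. Among the 10 described here 3 rose and 5 fell. Members and lists were chosen with earlier results of these data known, so this contrast is not a test. The 26 also averaged 8.13 in Ccr2-/- and 8.11 in wild type arrays, against 10.4 and 10.7 for the 10 genes. The gene of the 26 that fell was Ccl24, which encodes eotaxin-2, a ligand of CCR3. It read 8.38, 8.25 and 8.87 in Ccr2-/- arrays, 9.15, 9.50 and 9.86 in Ccl2-/- arrays and 9.96, 9.74 and 9.54 in wild type arrays. Ccr2-/- was below both other groups, which overlapped, and the difference from wild type was -1.25 (0.42-fold, adjusted p = 0.00594). Ccl24 was also lower than in Ccl2-/- (0.50-fold, adjusted p = 0.0451), but 0 of the 26 fell there once the arrays were centred, and 0 to 1 with an array left out (1 without Ccr2-/- replicate 3 or Ccl2-/- replicate 1). Leaving out Ccl2-/- replicate 1 also gave 2 of the 26 that rose in Ccr2-/- against wild type. None of the 26 passed in Ccl2-/- against wild type, where 2 had an unadjusted p under 0.05, against 13.1% of all genes.

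The pattern of each chemokine gene over the 9 arrays was matched against 17840 other genes by Pearson's r of log2 values, as a description that rests largely on the 3 genotype means and on shared arrays. The pair most like each member was Sema4a and Podxl for Ccl3 (both 0.980), Abtb2 and Ncald for Ccl4 (both 0.980), Cobll1 (0.995) and Il18rap (0.991) for Ccl5, and Fkbp3 (0.989) and Ankrd54 (0.984) for Xcl1. For the lower genes it was Dynlt3 and Ttc12 for Ccl6 (both 0.989), Csf3r (0.995) and Rsu1 (0.988) for Ccl9, Mrpl30 and Ksr1 for Cxcl9 (both 0.981), and Plekhm2 (0.990) and Prkag2 (0.977) for Cxcl10. The nearest genes were Chmp4b (0.981) and Uxs1 (0.965) for Cxcl16, and Bik (0.975) and Il17a (0.962) for Cxcl2.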

How the data were processed

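RNA of purified blood monocytes was hybridised to Affymetrix Mouse Gene 1.0 ST arrays, with 3 arrays of 5 pooled mice for each of Ccr2-/-, Ccl2-/- and wild type. The deposited table holds linear intensity values, computed by the authors with dChip, for 35512 transcript clusters; the version, normalization and expression model are not given in the sources used here. Of the clusters, 21789 were annotated to 1 gene symbol, 1621 to several and 12102 to none, and of these 21698 matched the RefSeq gene table. For 999 genes with several clusters the brightest one on average was kept, which left 19938 genes. Values were set to at least 1 and log2-transformed, and genotype means were fitted over the 9 arrays by limma (version 3.58.1, R version 4.3.3), adjusting p by Benjamini-Hochberg over all genes; the script was tested on simulated data. Every p is for a difference of group means. Its variance was estimated between pooled arrays over the genotypes fitted and moderated over all genes, and the number of arrays limits the precision.

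All 10 chemokine genes were named, with the genes of 4 related lists past the test, up to 4 markers per cell type and the 2 most similar genes per member. The members and lists were chosen with earlier results of these data known. Promoter windows came from RefSeq (GRCm38.p6) for 7 of the 10 genes, while Ccl4, Ccl5 and Cxcl16 were named only. Alternatives were quantile normalization, centring, an intensity filter, an offset, an intensity trend, another cluster summary, fits of the arrays compared, a replicate block and leaving out each array. For the size limits, group medians and scaled arrays were tried.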

Additional observations from a re-analysis of the deposited data

Results flagged for a closer look

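The intensity of 3 chemokine genes differed between the knockouts, by the test of Ccr2-/- against Ccl2-/- itself. Ccl9 differed by -0.36 (limma adjusted p = 0.0306), Cxcl2 by -0.51 (adjusted p = 0.0427) and Cxcl16 by -0.54 (adjusted p = 0.029). Cxcl2 and Cxcl16 were below the array median on every array and were not shown to be above background, so that for them this is a difference of probe intensity only. In each the 3 Ccr2-/- arrays lay below the 3 Ccl2-/- arrays. After the arrays were centred on their medians the values were -0.25 (adjusted p = 0.335), -0.40 (adjusted p = 0.0777) and -0.43 (adjusted p = 0.0936) in the same order, so that none of the 3 passed. The median difference over all genes was -0.08 in this comparison, and 0.03 after centring.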

How the results depend on the processing

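Of 510 alternative values for the 10 genes, 439 kept their direction and their side of the threshold, 23 gained and 44 lost a call, and 4 turned their sign. The sign changes were Cxcl16 in Ccl2-/- against wild type (-0.054 after quantile normalization, -0.039 after centring, and -0.004 to 0.120 with an array left out, the lowest without wild type replicate 3) and Ccl4 in Ccr2-/- against Ccl2-/- (-0.081 to 0.268 with an array left out, the lowest without Ccl2-/- replicate 3). Ccl6, Ccl9, Cxcl9 and Cxcl10 fell in Ccr2-/- against wild type under every alternative. There, 3 members rose and 5 fell, and leaving out an array gave 1 to 4 that rose (1 without Ccr2-/- replicate 2 or wild type replicate 1) and 4 to 5 that fell. In Ccl2-/- against wild type, where 0 fell, 2 fell after quantile normalization, 1 after centring, 1 with genes over an intensity of 100 only, 2 with 50 added before log2, 2 with an intensity trend, and 0 to 3 with an array left out (1 without Ccl2-/- replicate 1, 3 without replicate 3). The share of all genes that fell there moved too, at 0.0853% as fitted, 0.145% after quantile normalization, 0.0802% after centring, 0.121% with the intensity limit, 0.271% with 50 added, 0.858% with the trend and 1.08% without Ccl2-/- replicate 3. In Ccr2-/- against Ccl2-/-, 1 member rose after centring and 2 with the trend, and 0 to 1 with an array left out (1 without Ccl2-/- replicate 1). Of the 3 that fell there, 0 passed after centring, 0 in a fit of the 6 arrays compared and 0 to 3 with an array left out. By the size limits, 1 member was higher in Ccl2-/- than in wild type with group medians, 1 with scaled arrays and 1 to 2 with an array left out (1 without wild type replicate 3 or Ccl2-/- replicate 1), and in Ccr2-/- against Ccl2-/- 2 were higher with scaled arrays and 1 to 2 with an array left out. The cause was not tested.

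Whether replicate numbers pair the arrays could not be settled with 3 arrays per group, whose deviations from the group mean depend on each other. These deviations correlated for same-numbered arrays at -0.15 to 0.10 between Ccr2-/- and wild type, at -0.18 to 0.56 between Ccl2-/- and wild type and at -0.11 to 0.13 between Ccr2-/- and Ccl2-/-. For arrays of different number the ranges were -0.18 to 0.15, -0.69 to 0.56 and -0.11 to 0.09 in the same order. With the replicate number as a block, 0 members fell in Ccr2-/- against Ccl2-/- and Ccl4 passed in Ccr2-/- against wild type (adjusted p = 0.0363). Over all genes the block gave 2094 calls in place of 2648 for Ccr2-/- against wild type, 7 in place of 32 for Ccl2-/- against wild type and 167 in place of 718 for Ccr2-/- against Ccl2-/-.

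List counts moved as well. NK markers that rose in Ccl2-/- against wild type numbered 1, but 0 after centring, 15 with the trend and 0 to 14 with an array left out (14 without Ccl2-/- replicate 3), and pan-monocyte markers that fell in Ccr2-/- against wild type numbered 6, but 3 after centring. With 3 pools per genotype, no value describes single mice.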
